A study of Mus musculus with 12 samples.

Results

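DNA copy number at the genes of mitosis and the spindle checkpoint was examined in malignant peripheral nerve sheath tumour (MPNST) cells, an aggressive tumour of the Schwann cell lineage. The set comprised 10 genes, Foxm1, Ccnb1, Plk1, Aurka, Aurkb, Birc5, Bub1, Bub1b, Mad2l1 and Top2a, chosen by gene name. The array carried 15 probes named for 9 of them, out of 19959 named genes on autosomes, and no probe named Aurkb. The study used 12 two-colour arrays for comparative genomic hybridisation (array CGH), which sets the DNA of one sample against that of another at many short probes. On every array Cy5-labelled tumour DNA was hybridised against Cy3-labelled DNA of non-neoplastic Schwann cells from wild-type C57BL/6J mice. All tumours came from P0-GGFβ3 transgenic mice, in which the Schwann cell promoter P0 drives the neuregulin-1 isoform GGFβ3, and were grown in culture. Passage numbers in the sample titles run from 5 to 13 (none for 231 Trig), beyond the upper limit of 8 in the growth protocol. There were 11 tumours, 4 from C57BL/6J mice (B76, B86, B91 and B96) and 7 from mice of a C57BL/6J x SJL/J mix (A18, A202, A292, A382, A390, A394 and 231 Trig). For A382 the mean of 2 arrays was used, 1 each from passages 8 and 9. Tumour cultures were passaged without forskolin and neuregulin-1β, whereas Schwann cells were kept in both. The ages of the mice are not given in the labels, and nothing in them says whether tumours came from separate mice, so p-values measure the spread between these cultures. The assay measures DNA, not transcripts, and expression markers of Schwann cells could not be used to check the cell type.

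The genes act in one sequence of events. Foxm1 is a transcription factor that turns on many genes of the G2 and M phases. Cyclin B1 (Ccnb1) activates the kinase Cdk1 at mitotic entry, the kinases Plk1 and Aurka build the spindle poles, and Aurkb with survivin (Birc5) corrects faulty attachments of chromosomes to the spindle. Bub1, BubR1 (Bub1b) and Mad2 (Mad2l1) form the spindle checkpoint, which holds the anaphase-promoting complex inactive until every chromosome is attached, and topoisomerase IIα (Top2a) untangles sister chromatids. Loss or excess of checkpoint proteins is known to cause whole chromosomes to be missegregated.

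The sequences of 7 probes are shown because the results for Mad2l1, Foxm1, Top2a and Bub1b turn on single probes. They are printed as the array files list them, with mm9 coordinates and with no strand, since the files give none. The files list 1 perfect match in the genome for each of the 15 probes.
Mad2l1 probe 1, chr6:66489958-66490017: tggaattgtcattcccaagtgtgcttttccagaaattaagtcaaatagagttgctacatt
Foxm1 probe 1, chr6:128314972-128315031: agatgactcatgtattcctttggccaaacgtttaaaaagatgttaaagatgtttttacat
Foxm1 probe 2, chr6:128320968-128321021: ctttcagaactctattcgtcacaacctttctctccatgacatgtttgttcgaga
Top2a probe 1, chr11:98854684-98854743: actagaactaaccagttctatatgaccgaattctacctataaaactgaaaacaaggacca
Top2a probe 2, chr11:98883015-98883071: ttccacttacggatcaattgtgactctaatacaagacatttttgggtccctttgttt
Bub1b probe 1, chr2:118446821-118446880: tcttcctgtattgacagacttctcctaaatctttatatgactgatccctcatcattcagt
Bub1b probe 2, chr2:118451766-118451822: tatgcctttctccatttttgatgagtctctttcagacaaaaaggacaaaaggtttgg
Their base composition ranged from 30.0% G and C in Foxm1 probe 1 to 40.7% in Foxm1 probe 2. The other members were read at chr2:127634738-127642311 (Bub1, 2 probes), chr2:172181868-172185377 (Aurka, 2 probes), chr7:129304367-129309007 (Plk1, 2 probes), chr11:117716414-117716473 (Birc5, 1 probe) and chr13:101551942-101552001 (Ccnb1, 1 probe). No gene annotation of mm9 was used here, and no exon or intron is assigned.

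Ratios are given as log2 of tumour over reference, centred on the median of the autosomal probes of each array, so that 0 is the array's own middle. Each gene was read in 3 ways. The gene ratio is the mean of its probes, the stretch level is the median of the 20 probes that flank it (10 on each side), and the offset is a probe's ratio minus that stretch level. On all 12 arrays each member probe was well above background in either channel, and no member spot was marked as faulty. Slide 1, which held B86, A18, A202 and 231 Trig, was scanned on a different instrument, and its 4 arrays had more faulty spots (0.723% to 1.99%) than the 8 arrays of slides 2 and 3 (0.0604% to 0.107%). Every tumour had the median of chromosome 11 at least 0.2 above the reference. Precision is limited by the number of arrays.

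Top2a, Birc5, Mad2l1 and Foxm1 were higher than the reference, and no member was lower. To pass, a gene needed an adjusted p under 0.05 in limma (Benjamini-Hochberg, over all genes) and a mean at least 0.2 from 0. By this rule 4 of 9 members were higher, against 18% of all genes, and 0 of 9 were lower, against 15.5%. Both chromosome 11 members were among those 4, and without chromosome 11 the count was 2 of 7 members against 11.5% of genes. The median of the members' mean ratios was 0.15, against -0.01 for all genes. The stretch levels gave a different picture for Mad2l1, whose neighbours averaged 0.16 where its own probe averaged 0.75, as the plot of gene ratios and stretch levels shows.

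**Figure D1:**
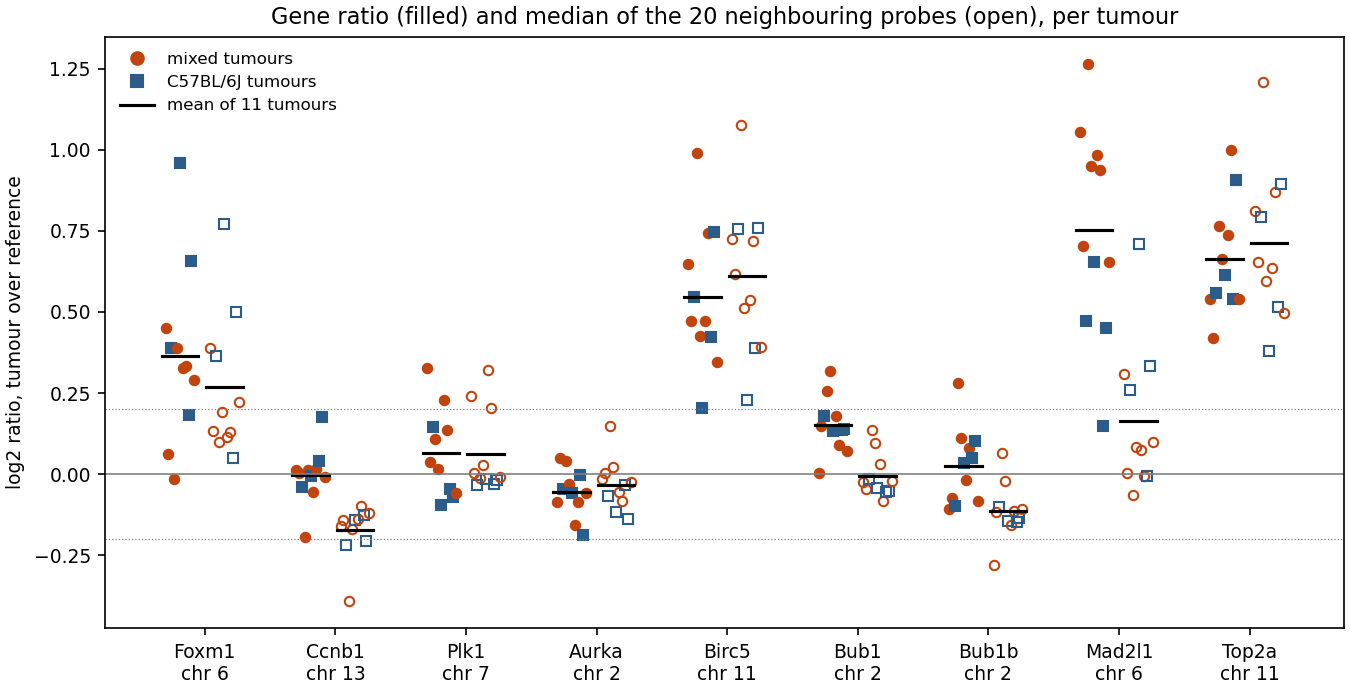
Log2 ratio of tumour over reference for each member, with the gene ratio as filled symbols and the median of the 20 neighbouring probes as open symbols. Each symbol is one tumour (orange circles mixed background, blue squares C57BL/6J), black lines are means of 11 tumours and dotted lines mark 0.2 and -0.2. Both readings of Top2a and Birc5 sit above 0.2 in all tumours. For Mad2l1 the mean of the filled symbols lies far above that of the open ones.

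Foxm1, the transcription factor gene, lies on chromosome 6. Gene ratios went from -0.02 in A202 through a median of 0.33 to 0.96 in B91. The next highest was B76 at 0.66, and 8 of 11 tumours were at 0.2 or more. The mean was 0.37 ± 0.27 (SD, n = 11; limma adjusted p = 0.000491).

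Its stretch carried the same order at the top. The stretch level was 0.77 in B91, 0.50 in B76, 0.39 in A18, 0.36 in B86 and 0.22 in A394, and it lay below 0.2 in the other 6 tumours. The mean stretch level was 0.27 ± 0.22 (limma adjusted p = 0.00181). Chromosome 6 as a whole was gained in A18, B86, B91 and B76, and the Foxm1 stretch stayed between 0.06 and 0.16 above the chromosome 6 median in all tumours.

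The Foxm1 probes, 5996 bases apart, did not read alike. Probe 1 had a mean ratio of 0.76 ± 0.29 and probe 2 of -0.03 ± 0.26 (SD, n = 11). The gene ratio of 0.37 is thus the mean of a raised probe and a probe near 0. Probe 1 stood above its neighbours in 11 of 11 tumours, from 0.16 through a median of 0.55 to 0.64 (mean offset 0.49 ± 0.15, SD, n = 11; limma adjusted p = 2.01e-07). Probe 2 stood below them in all 11, from -0.46 through -0.32 to -0.19 (mean -0.30 ± 0.10; adjusted p = 1.31e-06). The pair differed by 0.79 ± 0.10, and of 8332 genes with 2 probes only 1.09% had a larger mean difference. Probe 1 is poorer in G and C than the median of its neighbours (30.0% against 36.7%) and probe 2 richer (40.7%), and the part of base composition in the offsets was not tested.

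Ccnb1, the mitotic cyclin gene on chromosome 13, was near 0. Its gene ratio ran from -0.20 in A202 through a median of 0.004 to 0.18 in B76, with a mean of -0.004 ± 0.09 (SD, n = 11; limma adjusted p = 0.932). Its stretch was lower than its single probe, below 0 in all 11 tumours, from -0.39 in A202 through -0.14 to -0.10. The stretch mean was -0.17 ± 0.08 (limma adjusted p = 0.000597), which did not reach the size of 0.2, and A202 was the only tumour counted as having lost chromosome 13. The probe stood above its neighbours by 0.17 ± 0.08 in 11 of 11 tumours, also under that size. With 40 neighbours the offset was 0.20 (adjusted p = 9.62e-06) and in the C57BL/6J tumours alone 0.22 (adjusted p = 0.0137), which would pass.

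Plk1, the kinase of mitotic entry on chromosome 7, did not pass. The ratio ran from -0.09 in B91 through 0.04 to 0.33 in A18 (mean 0.07 ± 0.14, SD, n = 11; limma adjusted p = 0.221). Its stretch level was 0.32 in A292, 0.24 in A18 and 0.20 in A382, and between -0.03 and 0.03 in the other 8. The 3 tumours with a raised stretch were all of mixed background, and only A18 had the whole of chromosome 7 counted as gained.

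Aurka, the spindle pole kinase gene on chromosome 2, was close to the reference in every tumour. Its gene ratio ran from -0.19 in B76 through -0.06 to 0.05 in 231 Trig (mean -0.06 ± 0.07, SD, n = 11; limma adjusted p = 0.186). No tumour reached 0.2 in either direction, in the gene ratio or the stretch level. Its probes differed by only 0.02 in the mean, less than in 93.4% of genes with 2 probes. For Aurkb no value is given. The nearest genes with probes on either side of it in RefSeq order were Ctc1 (1.04 ± 0.35, SD, n = 11) and Aloxe3 (0.43 ± 0.29), both on chromosome 11, with 7 and 18 annotated genes between them and Aurkb.

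Birc5, which encodes the survivin subunit of the chromosomal passenger complex, was higher in all tumours. Across tumours its ratio ran from 0.21 in B91 through 0.47 to 0.99 in A202 (mean 0.55 ± 0.22, SD, n = 11; limma adjusted p = 1.78e-06). Its stretch ran from 0.23 in B91 through 0.62 to 1.08 in A202 and averaged 0.61 ± 0.23. The probe lay within -0.21 to 0.03 of its neighbours, so gene and stretch ranked B91 lowest and A202 highest alike.

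Top2a, the topoisomerase gene, was also higher in 11 of 11 tumours. Its gene ratio ran from 0.42 in 231 Trig through 0.61 to 1.00 in A382 (mean 0.66 ± 0.18, SD, n = 11; limma adjusted p = 3.63e-08). With normexp background correction in place of the scanner's own the mean was 0.42 (adjusted p = 1.09e-05). Its stretch ran from 0.38 in B91 through 0.65 to 1.21 in A202 (mean 0.71 ± 0.23). A202 led the stretch, whereas by its own probes A382 and B76 (0.91) stood above A202 (0.77). A202 was on slide 1, A382 on slides 2 and 3 and B76 on slide 3. Both Top2a probes read lowest against their neighbours on slide 1. The mean offset on slides 1, 2 and 3 was -0.09, 0.55 and 0.41 for probe 1, and -0.50, -0.31 and -0.29 for probe 2. The part of slide in this order of tumours was not tested.

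The Top2a probes lie 28331 bases apart and differed by 0.63 ± 0.26, more than in all but 2.33% of genes with 2 probes. Probe 2 stood below its neighbours in every tumour, from -0.74 in A202 through -0.34 to -0.12 in B91 (mean -0.37 ± 0.17, SD, n = 11; limma adjusted p = 1.05e-05). Probe 1 averaged 0.26 ± 0.30 above them (adjusted p = 0.00936), but its mean offset was -0.09 on slide 1 against 0.55 and 0.41 on slides 2 and 3. Without slide 1 the offset was 0.47 (adjusted p = 3.09e-06), and with normexp background correction it turned to -0.44 (adjusted p = 9.81e-06).

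The brightness of each channel was read for the chromosome 11 members as log2 against the median of probes of like base composition. Over chromosome 11 the reference channel had a median of -0.52 ± 0.04 (SD, n = 12 arrays), and the tumour channel 0.15 ± 0.17 (n = 11 tumours). The chromosomes of the other members had reference medians between -0.01 and 0.10. Top2a probe 1 was among the dimmest, at -2.23 ± 0.19 in the reference and -1.30 ± 0.21 in the tumours. Birc5 had 0.02 ± 0.06 in the reference and 0.51 ± 0.21 in the tumours. Single probes spread widely (5th to 95th percentile -1.51 to 1.23 in the reference channel), and the part of the low reference signal over chromosome 11 in these ratios was not tested.

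Bub1, the kinase that recruits checkpoint proteins to kinetochores, lies on chromosome 2. Its gene ratio was above 0 in all tumours, from 0.004 in A18 through 0.14 to 0.32 in A390. The mean of 0.15 ± 0.09 (SD, n = 11; limma adjusted p = 0.00279) did not reach the size of 0.2. Its stretch averaged -0.01 ± 0.07 and stayed between -0.08 and 0.14. Probe 1 was above its neighbours in 11 of 11 tumours, from 0.11 through 0.29 to 0.43 (mean offset 0.27 ± 0.08; limma adjusted p = 1.33e-06), whereas probe 2 averaged 0.05 ± 0.09 (adjusted p = 0.155).

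Bub1b, which encodes BubR1 of the mitotic checkpoint complex, lies on the same chromosome and did not pass. Its gene ratio ran from -0.11 in A18 through 0.03 to 0.28 in A202 (mean 0.03 ± 0.12, SD, n = 11; limma adjusted p = 0.624). That mean hid a split between probes. Probe 1 averaged -0.20 ± 0.16 and probe 2 0.25 ± 0.12, a mean difference of 0.44 in size that 8.41% of genes with 2 probes exceeded. Probe 2 was above its neighbours in all 11 tumours, from 0.17 in A394 through 0.36 to 0.51 in B76 (mean offset 0.36 ± 0.10; limma adjusted p = 2.34e-07). The stretch averaged -0.12 ± 0.09 and was lowest in A18 at -0.28.

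Mad2l1, which encodes the checkpoint protein Mad2, had the highest mean ratio among the members. Its single probe read 0.15 in B96, the lowest, through a median of 0.70 to 1.27 in A202. The mean was 0.75 ± 0.32 (SD, n = 11; limma adjusted p = 1.65e-06), and 10 of 11 tumours were at 0.2 or more. In the C57BL/6J tumours alone the mean was 0.43 (adjusted p = 0.0173).

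The median of the 20 probes around Mad2l1, which span 1409 kb, did not show this level. The nearest probe on each side was itself raised. At 26.9 kb before, the mixed mean was 0.50 and the C57BL/6J mean 0.77. At 12.3 kb after, they were 0.26 and 0.70. In the C57BL/6J tumours both of these means lay above that of the Mad2l1 probe (0.43). The stretch ran from -0.07 in A202 through 0.08 to 0.71 in B91, with 0.33 in B76, 0.31 in A18 and 0.26 in B86. Those 4 tumours are the ones with chromosome 6 counted as gained, and the other 7 lay between -0.07 and 0.10. The stretch mean was 0.16 ± 0.23 (limma adjusted p = 0.0400), under the size of 0.2, so the call for Mad2l1 ended when its neighbours were read in its place. A202 had the highest Mad2l1 ratio and the lowest stretch.

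The offset of the Mad2l1 probe separated the backgrounds. In the 7 mixed tumours it ran from 0.55 in A394 through 0.86 to 1.33 in A202. In the C57BL/6J tumours it was 0.21 in B86, -0.06 in B91, 0.15 in B96 and 0.12 in B76. All mixed tumours lay above all C57BL/6J tumours, as did the values of 1.71% of all probes in one direction or the other. Over all 11 tumours the mean offset was 0.59 ± 0.43 (SD, n = 11; limma adjusted p = 0.000385), but in the C57BL/6J tumours alone it was 0.11 (adjusted p = 0.133).

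**Figure D2:**
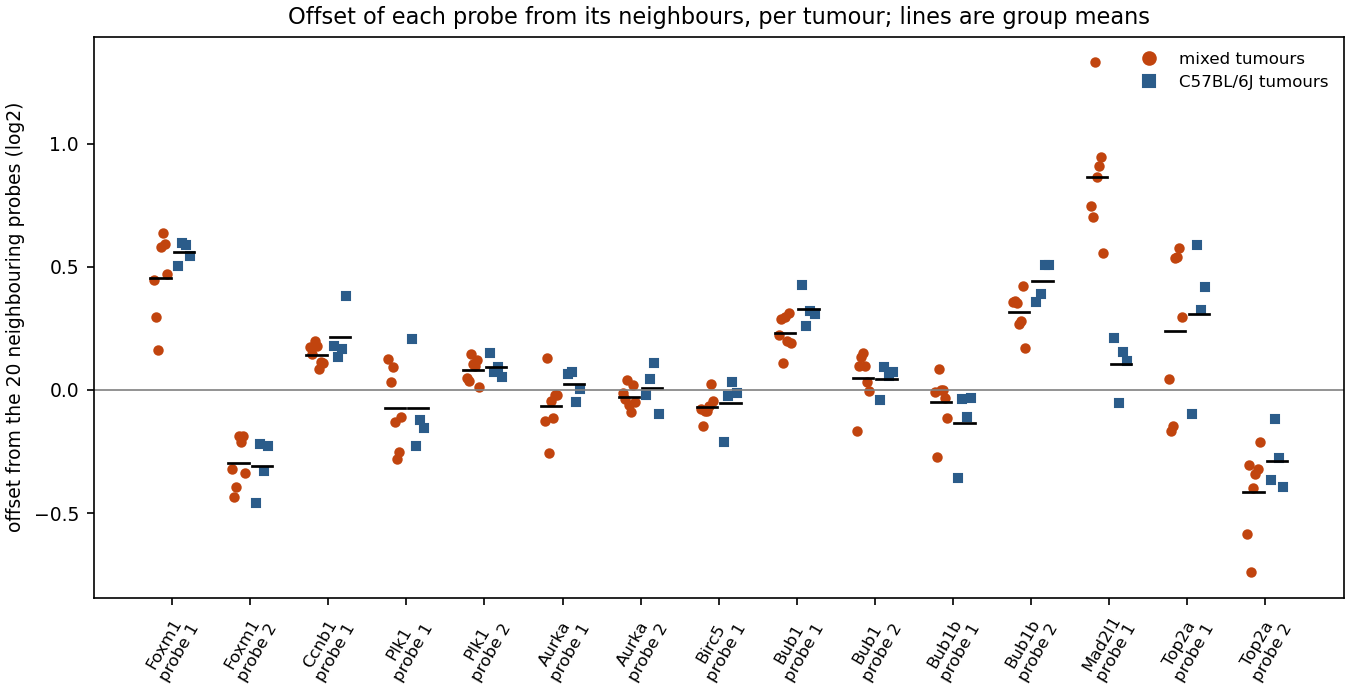
Offset of each member probe from the median of its 20 neighbours (log2), one symbol per tumour (orange circles mixed background, blue squares C57BL/6J), with black lines for the group means. The 7 mixed tumours lie at 0.55 or above at the Mad2l1 probe and the 4 C57BL/6J tumours at 0.21 or below, while at each of the other 14 probes the groups overlap.

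The mixed and C57BL/6J means of this offset were 0.86 ± 0.25 (SD, n = 7) and 0.11 ± 0.11 (n = 4). The difference was 0.76 with a standard error of 0.12 (limma adjusted p = 0.0276 over 40726 probes). This test was chosen after seeing the data. At the same rule 50 probes, 0.123% of those tested, differed between the backgrounds (7.24% had an unadjusted p under 0.05), and no other member probe did. Within slides 1, 2 and 3 the difference was 0.71, 0.96 and 0.62. These slides held 3, 3 and 2 mixed but only 1, 1 and 2 C57BL/6J tumours, with A382 on both slides 2 and 3. The call was lost with slide as a block (0.71, adjusted p = 0.0660). It was also lost on leaving out A18 (adjusted p = 0.0537), B86 (0.0770), B91 (0.132), B96 (0.121) or B76 (0.113), with differences between 0.70 and 0.79.

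The adjacent probes ran the other way. At 26.9 kb before the Mad2l1 probe the mixed mean was 0.50 ± 0.23 and the C57BL/6J mean 0.77 ± 0.24. At 12.3 kb after it, at a probe named Vmn1r32, they were 0.26 ± 0.31 and 0.70 ± 0.42. Of the 30 probes that flank Mad2l1, 29 had the lower mean in the mixed tumours, and the remaining probe differed by only 0.002. These probes are not separate readings, since all lie on chromosome 6. That chromosome was counted as gained in the C57BL/6J tumours B86, B91 and B76 but, among the mixed tumours, only in A18. Mad2l1 itself had 0.94 ± 0.21 in the mixed and 0.43 ± 0.21 in the C57BL/6J tumours. Its stretch averaged 0.07 ± 0.12 in the mixed and 0.32 ± 0.29 in the C57BL/6J tumours. The offset subtracts this stretch level, so part of the 0.76 lies in the stretch. By its own ratio the probe differed by 0.50 (limma adjusted p = 0.229 over all probes).

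**Figure D3:**
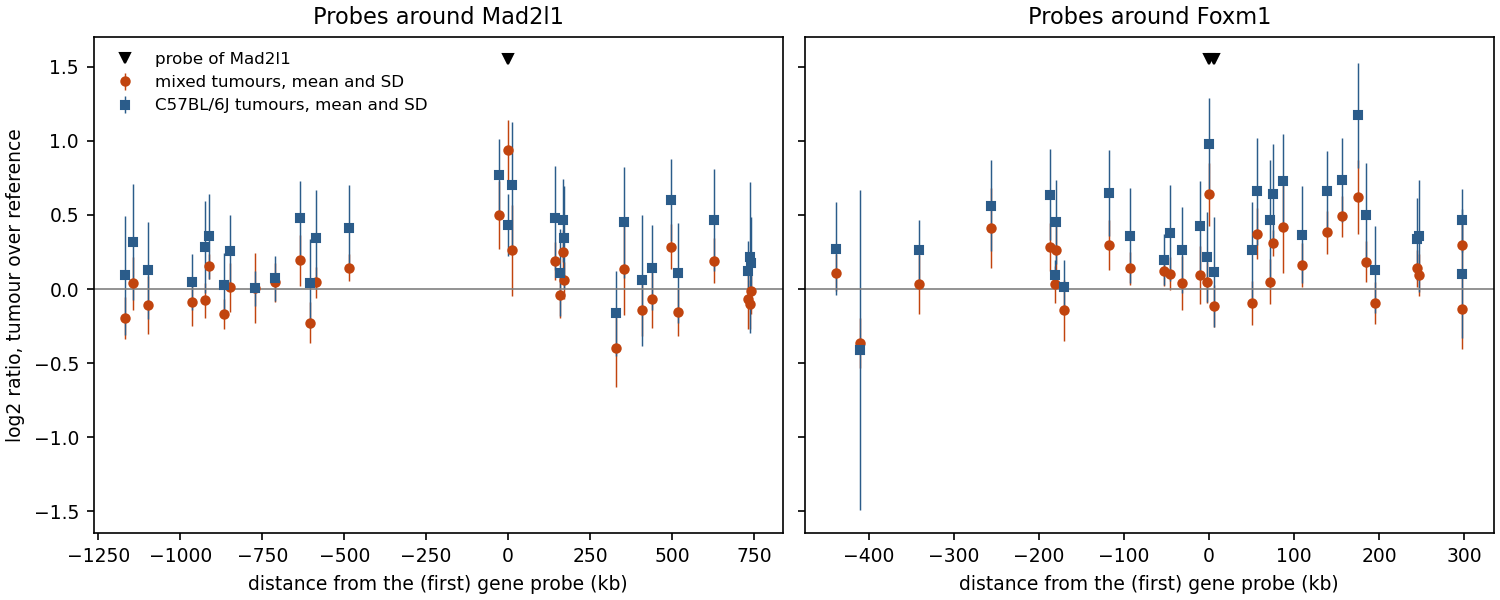
Mean log2 ratio with SD of the 7 mixed (orange circles) and 4 C57BL/6J tumours (blue squares) at the member probes and the 30 probes flanking them, against distance in kb from the first probe of Mad2l1 (left) or Foxm1 (right). Triangles mark the member probes. Around both genes the mixed tumours lie below the C57BL/6J tumours at 29 of 30 flanking probes, and the Mad2l1 probe has the opposite order. Both genes lie on chromosome 6, which was counted as gained in B86, B91 and B76 (C57BL/6J) and in A18 (mixed).

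At the Mad2l1 probe the backgrounds differed in the tumour channel. The reference channel was 0.07 ± 0.09 (SD, n = 12 arrays), within -0.05 to 0.17 on every array. The tumour channel was 0.95 ± 0.20 in the mixed and 0.47 ± 0.23 in the C57BL/6J tumours. The reference DNA was C57BL/6J throughout, so a difference in sequence between strains and a difference in copy number cannot be told apart at this one probe.

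Counted per tumour, a probe was marked when its offset exceeded 3 robust SDs of all offsets in that tumour. The Mad2l1 probe was marked in 5 tumours, all mixed (A18, A202, A390, A292 and A382), by 3.13 to 6.17 robust SDs. Foxm1 probe 1 was marked in A292 and Top2a probe 2, below its neighbours, in A202. That made 6 of 165 member readings above the limit and 1 below it, against 0.829% and 1.03% of all readings. Over all tumours 5 of 15 member probes passed the offset test above and 2 below, against 13.7% and 15.2% of probes, so the share passing in either direction is to be read against a background of 28.9%.

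For the stretches, 34 of 99 readings (9 genes in 11 tumours) were at 0.2 or more, against 19.6% over all genes. Of these, 22 were Top2a and Birc5. Without chromosome 11 the count was 12 of 77, against 12.9%. Those 12 were Foxm1 in 5 tumours, Mad2l1 in 4 and Plk1 in 3. Readings at -0.2 or less numbered 4, against 10.4% over all genes, and were Bub1b in A18 and Ccnb1 in A202, B76 and B86. No member stretch departed from its chromosome's median by more than 0.18 in any tumour.

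Between strain backgrounds, no member passed on the gene ratio. Across all genes 3, or 0.015%, passed in limma, and 10.3% had an unadjusted p under 0.05. Mad2l1 had the largest difference among members, 0.50 higher in the mixed tumours (standard error 0.12, limma adjusted p = 0.246, range over the alternatives 0.189 to 0.696). Its groups met at their edges, where the lowest mixed tumour (A394) and the highest C57BL/6J tumour (B91) both read 0.65. No member's groups were free of overlap on the gene ratio, against 2.19% of all genes whose groups were. Foxm1 was 0.28 lower in the mixed tumours (0.26 ± 0.17 against 0.55 ± 0.34; limma adjusted p = 0.485), with overlapping groups. The other 7 members differed by at most 0.13 in size, with adjusted p from 0.567 to 0.978.

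The number of whole-chromosome changes per tumour was set against each member. A change was counted when an autosome's median and the medians of its left and right parts by probe order were at least 0.2 from 0 in the same direction, leaving out chromosome 11 and the gene's own chromosome. Before a gene's own chromosome was left out, the counts were 0 in A292, 1 in A394, 2 in 231 Trig, A382 and B96, 3 in B86, 4 in A18 and B91, 5 in A390 and B76, and 9 in A202. No member's ratio was related to this number after adjustment. Across all genes the permutation test called 0 of 19602, with 3011 genes (15.4%) at an unadjusted p under 0.05.

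Bub1b came nearest, with Pearson's r = 0.72 (permutation p = 0.0135, adjusted p = 0.284) and Spearman's rho = 0.53 (permutation p = 0.0970) over 11 tumours. Its ratio was highest, 0.28, in A202, the tumour with 9 changes, which also had the highest chromosome 2 median (0.10). With arrays centred on the mode r was 0.61 (permutation p = 0.0470). With a threshold of 0.15 for a change r was 0.47 (permutation p = 0.143), and with 0.3 it was 0.74 (permutation p = 0.0190). The part of the centring in this relation was not otherwise tested. Without A202 r was 0.39 (permutation p = 0.257), and without A202 and A292, the tumours farthest from the median count, it was 0.43 (exact permutation p = 0.241, n = 9). On slides 2 and 3 alone, which do not hold A202, r was 0.76 (exact permutation p = 0.0460, n = 7), while slide 1 held only 4 tumours. The value thus changed with the tumours included and the settings, and none of the p-values of r passed after adjustment over all genes.

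Birc5 followed with r = 0.59 (permutation p = 0.0554, adjusted p = 0.329; rho = 0.45, permutation p = 0.169). Without the 2 farthest tumours it was 0.17 (exact permutation p = 0.656, n = 9), and on slides 2 and 3 it was 0.10 (exact permutation p = 0.790, n = 7). For the checkpoint genes Bub1 and Mad2l1 r was 0.44 each (permutation p = 0.168 and 0.176), and for Mad2l1 it fell to 0.01 without A202. The remaining 5 members had r between -0.23 and 0.29 (permutation p from 0.393 to 0.690).

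Ccnb1 depended most on A202, with r = -0.23 over all tumours and 0.56 without that tumour (permutation p = 0.0769). Read through its stretch, Ccnb1 had r = -0.81 (permutation p = 0.00350, adjusted p = 0.105), with A202 again at the end of the scale. Top2a had r = 0.23 by its own probes and 0.63 by its stretch (permutation p = 0.0383, adjusted p = 0.210). Its probes read lowest against their neighbours on the slide that held A202, as given above, and the part of slide in this contrast was not tested. In the main setting 9 relations of members were computed by r, within a family of 19602 genes over which the p-values were adjusted. Besides these, each member had 19 alternative settings and a Spearman's rho, whose p-value was not adjusted.

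**Figure D4:**
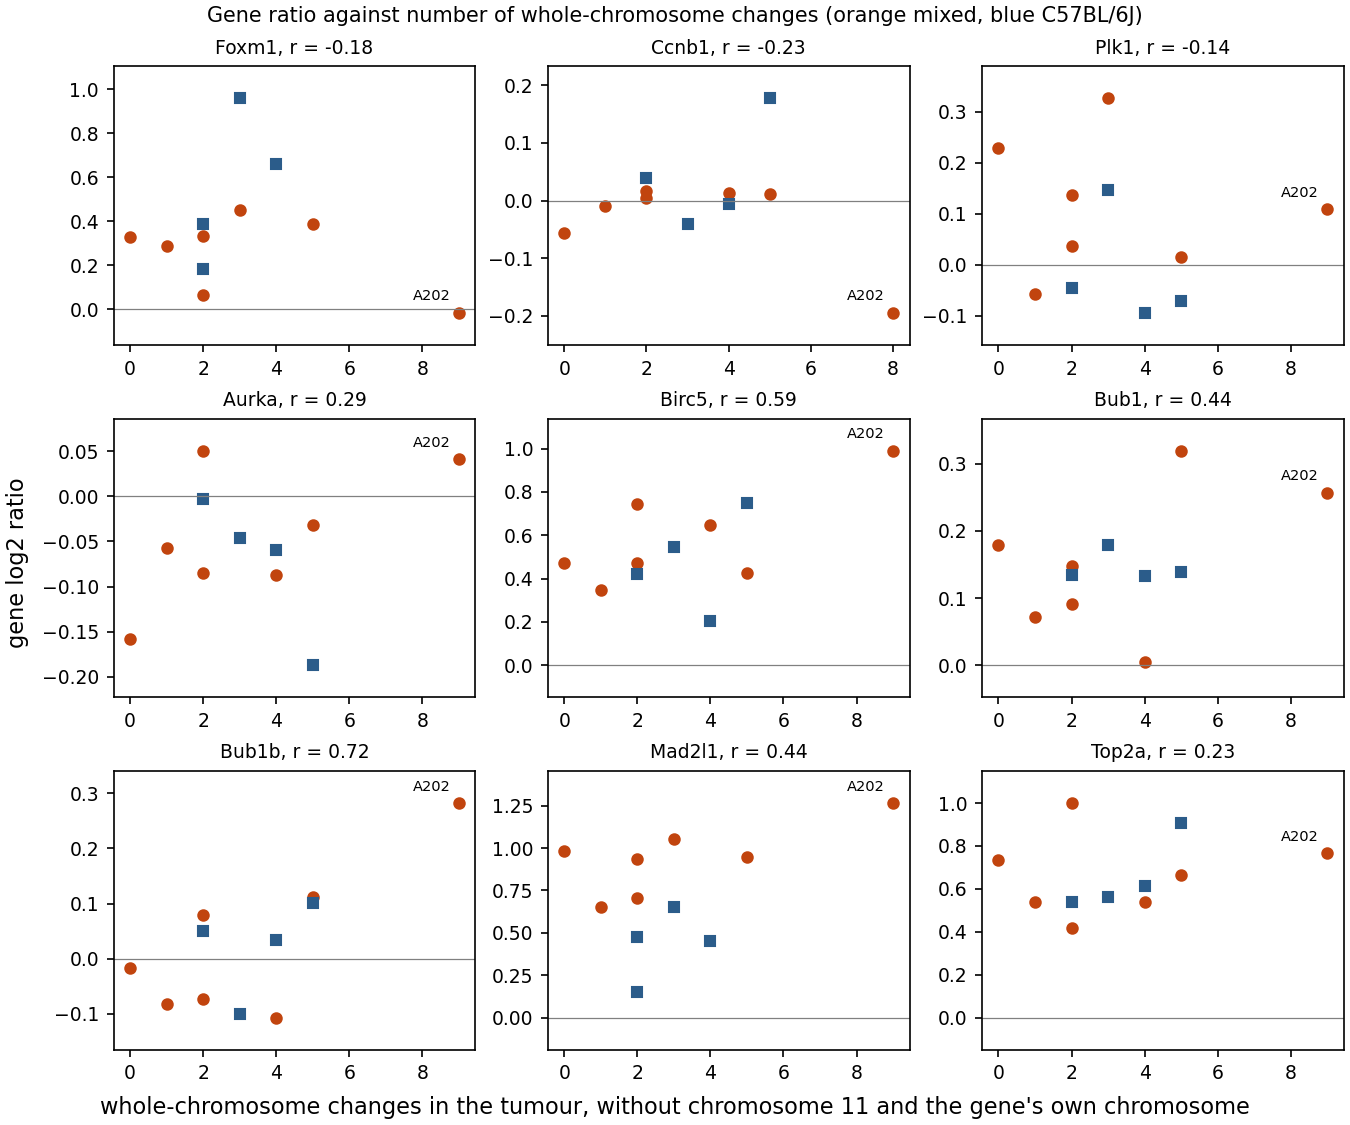
Gene log2 ratio of each member against the number of whole-chromosome changes in the tumour, leaving out chromosome 11 and the gene's own chromosome. Each symbol is one of 11 tumours (orange circles mixed background, blue squares C57BL/6J), r is Pearson's correlation, and A202, with the most changes, stands alone at the right of every panel.

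As a description, the genes whose ratios followed each member most closely over the 11 tumours were found by Pearson's r. The highest was taken from genes named by a symbol, not by a cDNA accession, and with values in all tumours. Foxm1 was matched by Lep on its own chromosome (r = 0.99), 99.3 Mb away. Birc5 was matched by Dph1 (0.99, 42.7 Mb), Plk1 by Nap1l4 (0.99, 21.4 Mb), Top2a by Traf4 (0.98, 20.9 Mb) and Bub1 by Cubn (0.96, 114 Mb). Mad2l1 had the weakest match on its own chromosome, Tmem43 (0.84), and a closer one on chromosome 2, Rhov (0.91). Bub1b (Tcea2 0.93, Chek2 on chromosome 5 0.96) and Ccnb1 (Grk6 0.89, Poteg on chromosome 8 0.96) were likewise closest to a gene on another chromosome. For Aurka the closest were Olfr1100 (0.90) and Agmo on chromosome 12 (0.87). On other chromosomes the best for Top2a was Washc4 (0.90), for Birc5 4930404N11Rik (0.88), for Bub1 Grk3 (0.91), for Plk1 Tmem222 (0.84) and for Foxm1 Cstdc2 (0.93).

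Of 41 other mitosis genes, 37 had probes. Of these, 1 was higher (against 18% of all genes), 5 were lower (against 15.5%) and 31 did not pass, with a median of mean ratios of -0.06 against -0.01 for all genes. Pttg1, which encodes the separase inhibitor securin, was the gene that was higher (0.30 ± 0.16, SD, n = 11; limma adjusted p = 0.000109). It lies on chromosome 11, where its stretch averaged 0.83. The 3 lowest were Kif20a, a kinesin gene of cytokinesis (-0.34 ± 0.21; limma adjusted p = 0.000147), Incenp, the scaffold of the passenger complex (-0.28 ± 0.10; adjusted p = 2.29e-05), and Cenpa, the centromeric histone (-0.25 ± 0.18; adjusted p = 0.00112). Their stretches averaged -0.17, 0.002 and -0.06. Without chromosome 11, 0 of 36 were higher, against 11.5% of genes. Of 10 checkpoint and kinetochore genes 2 were lower, and of 9 spindle and cytokinesis genes 1 was lower, to be read against the same 15.5%.

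Between passages 8 and 9 of tumour A382, the members' gene ratios moved little. The difference lay between -0.11 for Ccnb1 and 0.08 for Bub1 in 8 members, inside the 5th to 95th percentile of all genes (-0.12 to 0.15). Top2a was 0.89 at passage 8 and 1.11 at passage 9, a difference of 0.22 beyond that range. Each passage had 1 array, on different slides, so this comparison has no replicate check.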

How the data were processed

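The deposited values are log10 ratios of tumour over reference signal and the brightness of each channel as intensity, per the file headers. Software (Agilent Feature Extraction 9.5) and build (mm9) are as in the submitters' processing notes. The series value table held the same ratios. Ratios were converted to log2, spots marked as non-uniform or population outliers were set to missing, spots of a probe were averaged, and arrays were centred on the autosomal median. Gene names come from the files, updated through RefSeq accessions.

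Genes, probe offsets and strain differences were fitted over 11 tumours by limma 3.58.1 under R 4.3.3, with Benjamini-Hochberg adjustment over all genes or probes, an adjusted p under 0.05 and a size of at least 0.2. One reference served all arrays, which leaves its spread out of the tests, and no dye was swapped. Relations used 100000 permutations, or exact ones for up to 9 tumours (two-sided). Steps were tested on simulated data with independent noise for each gene or probe. Changes shared along a chromosome were not simulated, so this checked the computing steps only.

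Members and lists were chosen with earlier results of these data known. All members and their probes are named, and of the other mitosis genes the 3 highest and 3 lowest that passed. Alternatives covered centring, background correction, flagged spots, slide, passage, number of neighbours, thresholds and left-out tumours.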

Additional observations from a re-analysis of the deposited data

Results flagged for a closer look

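The offset of the Mad2l1 probe differed between strain backgrounds, by 0.76 higher in the mixed than in the C57BL/6J tumours (limma adjusted p = 0.0276, a test chosen after seeing the data), with the losses of that call given above. Part of that difference lies in the stretch level that the offset subtracts, also given above.

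In 48 groups of 4 or 7 tumours checked for one tumour far from the others, 3 stood out, and chance alone marks about 1 group in 20. Bub1 read 0.18 in B86, against 0.13 to 0.14 in the other C57BL/6J tumours. Ccnb1 read -0.20 in A202, against -0.06 to 0.02 in the other mixed tumours. The Ccnb1 probe stood 0.38 above its neighbours in B76, against 0.14 to 0.18 in the other C57BL/6J tumours.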

How the results depend on the processing

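For members and their probes, 1096 of 1107 alternative values stayed on their side of the threshold, 8 lost a call, 2 gained one and 1 reversed. Of those 1096, 78 changed sign, all of values that did not pass in either setting: 11 gene ratios, 3 probe offsets, 22 strain differences of the gene ratio, 28 of the offset and 14 correlations. The reversal of a call was Top2a probe 1, whose offset was -0.44 with normexp background correction. For counts over all genes or probes, 120 of 140 stayed within 1.5 times. Reading the median of the 20 neighbouring probes in place of the gene gave 2108 genes higher and 454 lower, against 3599 and 3085 (added after seeing the data). The same reading gave 80 genes related to whole-chromosome changes, against 0. Centring on the mode gave 4227 higher and 2314 lower. Genes that differed between backgrounds numbered 3, but 15 with normexp, 0 without slide 1, and 2 to 10 on leaving out one tumour (10 without A390). Added after seeing the data, 17 probes differed by their ratio and 50 by their offset. The offset count was 128 with normexp, 136 without slide 1, and 2 (without B96) to 80 (without A202) on leaving out one tumour. The cause of these changes was not tested. No paired analysis was possible because the labels give no replicate numbers that pair tumours of the backgrounds. Slide, which holds both backgrounds, was used as a block, and its effect on the Mad2l1 offset is given above. Slide 1, with its own scanner, is the least precise, and members read by 1 probe (Birc5, Mad2l1 and Ccnb1) have no second reading.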
